A study of Danio rerio with 14 samples.

Results

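The cytosolic ribosomal proteins are the proteins that, with ribosomal RNA, build the ribosomes of the cytoplasm. Their genes were taken here as those whose symbol in the annotation of the array begins with rpl or rps, for the large or the small subunit, followed by a number or an a, or with rplp, for the proteins of the P stalk; genes of the rps6k kinase family were left out. The rule found 79 probe sets of 1 gene each, which stand for 74 genes of the 8793 that the array measures with a probe set of their own. Each gene is represented by the probe set with the highest mean. The rule uses names and mean levels, and no difference between groups. By role, 40 of the 74 encode large subunit proteins, 27 small subunit proteins and 3 P stalk proteins. The other 4 match by name but were set apart: rpl22l1 and rps27l encode paralogues of subunit proteins, rpl7l1 encodes a factor in assembly of the large subunit and rps19bp1 a protein that binds RPS19. This grouping was a choice, since the paralogues rpl5b, rps26l, rps27.2 and rplp2b were counted with the subunits or the stalk. The gene rpl32 was present only on a probe set it shares with kank1a (mean log2 level 13.40 over the arrays) and was not counted.

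The small subunit of the ribosome reads the messenger RNA, and the large subunit joins the amino acids. The P stalk is an extension of the large subunit that recruits the translation factors. A cell needs the subunit proteins in fixed proportions, and they are assembled with ribosomal RNA, made by RNA polymerase I, in the nucleolus. In mammals their messenger RNAs begin with a terminal oligopyrimidine (TOP) tract, through which the growth kinase complex TORC1 and the RNA-binding protein LARP1 regulate their translation. The liver is a major site of protein synthesis, and its translation varies with food supply.

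The samples were livers of 14 adult zebrafish, each put on its own single-colour Affymetrix array. All fish were ahcy+/+ or ahcy+/-; ahcy encodes the enzyme that removes S-adenosylhomocysteine, a product of methylation reactions. For 1 month, fish of both genotypes lived together in a tank given a usual amount of food (regular diet) or in a tank given too much (overfed). The regular diet had 4 ahcy+/+ and 3 ahcy+/- livers, and overfeeding had 5 ahcy+/+ and 2 ahcy+/- livers. Arrays are named here by the replicate number in their titles, which runs with gaps. With a single tank per diet, an effect of diet cannot be told apart from one of the tank, and p-values measure only the spread among fish of the same tanks. The labels give no sex. The heterozygous livers did not hold less ahcy transcript: on the regular diet its log2 level averaged 13.16 ± 0.06 (SD, n = 4) in wild-type livers against 13.26 ± 0.07 (SD, n = 3) in heterozygous ones, and after overfeeding 13.21 ± 0.05 (SD, n = 5) against 13.29 ± 0.06 (SD, n = 2).

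The median log2 value of an array ranged from 5.96 to 6.12. All 74 genes were among the 15134 probe sets tested. The mean level of 18 hepatocyte markers lay between 12.36 and 13.10 on every array. Over both genotypes 15 of the 18 were higher after overfeeding. Of these, 3 passed an adjusted p of 0.05 in limma, while 5.83% of all probe sets were called higher. Markers of other tissues differed between livers: the mean of 16 exocrine pancreas markers ran from 8.63 to 11.94 in regular-diet ahcy+/+, from 10.83 to 12.55 in regular-diet ahcy+/-, from 8.42 to 10.25 in overfed ahcy+/+ and from 7.06 to 11.85 in overfed ahcy+/- samples. The mean of 9 intestine markers ran from 6.19 to 9.04, from 6.53 to 9.85, from 5.81 to 6.23 and from 5.83 to 6.78 in the same order. The mean of 12 muscle markers ran from 6.19 to 6.35, from 6.36 to 7.06, from 5.95 to 6.17 and from 5.87 to 6.11. It was lower on every overfed array than on every regular-diet array. Over both genotypes none of the 12 was higher after overfeeding and 2 were called lower, against 4.5% of all probe sets. Of the 9 intestine markers 1 was higher and 3 were called lower, with a median log2 difference of -1.40. None of the 16 pancreas markers was higher, with a median of -1.67, and none was called. The means of erythrocyte (10 markers), leukocyte (12) and ovary markers (11) stayed between 6.42 and 8.19, 6.67 and 7.49, and 5.37 and 5.73, and no marker was at 0. Regular-diet ahcy+/+ array 9 had the lowest hepatocyte mean and, at 13.90, the highest mean of 3 vitellogenin probe sets (egg yolk proteins made in the liver of females), followed by 12.40 on overfed ahcy+/- array 1; where a named difference turned sign or moved by over 1.5 times without it, the value without it is given too. In bulk samples, fewer cells of a type and less RNA per cell cannot be told apart.

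The ribosomal protein genes gave some of the brightest and steadiest signals of the array. Of the 74 genes, 71 had a mean log2 level of at least 12 over the 14 arrays and 56 of at least 13; of all tested probe sets, 116 reached 13 and 8 reached 14. The median position of the 74 was above 99.44% of all tested probe sets. A probe set's brightness also depends on its sequence, so the order of the genes by level is an order of signals and not of transcript amounts. Whether the array still responds in proportion at this brightness was not tested.

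The spread of each gene over the 14 livers was small. The median SD over the arrays was 0.0591 log2 units for the 74 genes and 0.2434 for all tested probe sets. The difference also held at like brightness: between log2 levels of 12 and 14, the median SD was 0.0581 for 71 ribosomal protein genes and 0.2645 for the 157 other probe sets, and 70 of the 71 lay below that second value. Between 13 and 14 it was 0.0576 for 56 genes and 0.1724 for 52 others. The gap is given as a description, since probe sets are no independent samples. The smallest SDs belonged to rpl24 (0.0314), rpl7a (0.0324), rpl29 (0.0350), rps2 (0.0352) and rpl19 (0.0354). The largest belonged to rpl7l1 (0.603), rpl22l1 (0.317), rps27l (0.235), rpl22 (0.141) and rps19bp1 (0.140). The 4 genes that were set apart by name, of which rpl22l1 and rps27l are paralogues of subunit protein genes, were thus all among these 5. Without regular-diet ahcy+/+ array 9 the SD of rps19bp1 was 0.115, below those of rplp2 (0.125) and rps12 (0.121). These 4 genes were also the dimmest of the 74 (mean levels of 8.05 to 12.02), so this grouping and brightness went together. Over all 14 livers the level of rpl24 stayed between 13.05 and 13.15.

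**Figure D1:**
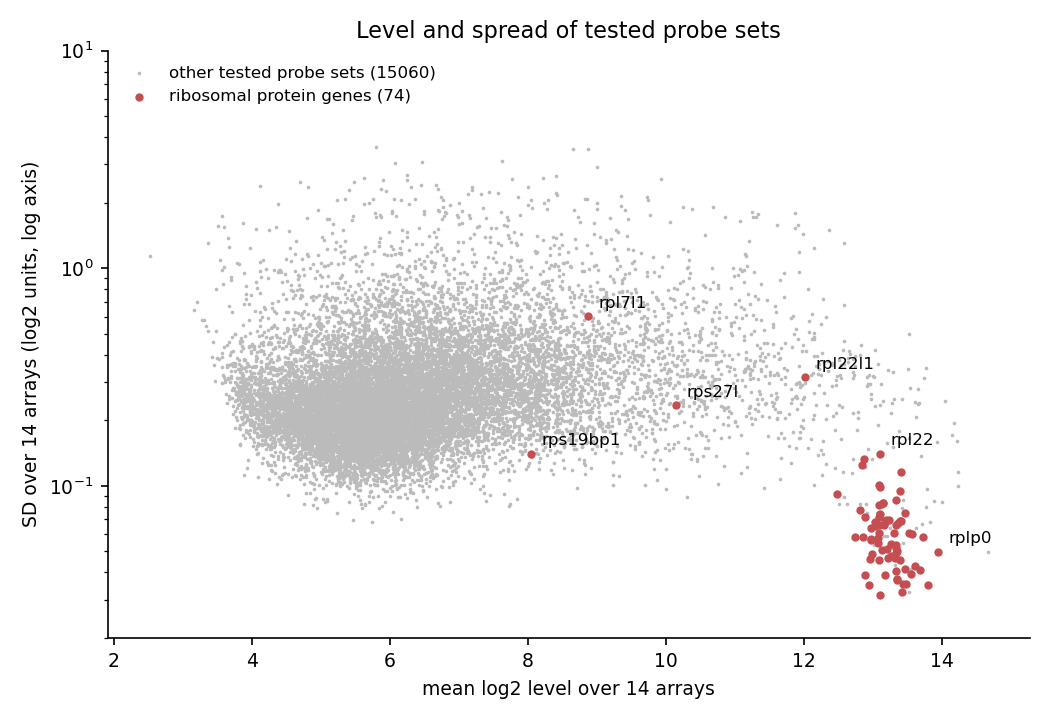
Mean log2 level of each tested probe set over 14 arrays (x axis) against its SD over the same arrays (y axis, log scale), with the 74 ribosomal protein genes in red and all other probe sets in grey. Most of the red points lie in the lower right corner, at levels of 12 to 14 and SDs under 0.1, and rpl7l1, rps27l, rps19bp1 and rpl22l1 lie apart at lower levels.

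Of the small subunit proteins, levels ran from 12.48 for rps27.2 to 13.80 for rps2, with a median of 13.19. The product of rps2 lies by the channel through which the messenger RNA enters. Its level was 13.83, 13.79, 13.76 and 13.74 on regular-diet ahcy+/+ arrays 2, 5, 6 and 9 and 13.83, 13.77 and 13.83 on regular-diet ahcy+/- arrays 3, 7 and 8. It was 13.86, 13.80, 13.81, 13.74 and 13.79 on overfed ahcy+/+ arrays 2, 3, 4, 6 and 7 and 13.79 and 13.80 on overfed ahcy+/- arrays 1 and 4. The groups overlapped throughout. Other bright members were rps4x (13.73) and rps27a (13.61), whose product is made as a fusion with ubiquitin, a protein tag for degradation. The paralogues rps27.1 and rps27.2 stood at 13.08 and 12.48, and rps26 and rps26l at 12.88 and 13.04.

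Of the large subunit proteins, levels ran from 12.73 for rpl27a to 13.68 for rpl3, which lies near the site of peptide bond formation, with a median of 13.22. The rpl5 paralogues rpl5a and rpl5b, whose product carries a small ribosomal RNA into the large subunit, stood at 12.97 and 13.08. The largest SD of the class was that of rpl22, and the next was 0.116 for rpl9. Of the P stalk, rplp0, the base on which the stalk is built, had the highest level of all 74 genes, 13.94, and ranged from 13.86 to 14.03 over the livers. The paralogues rplp2 and rplp2b, which encode the flexible part, stood at 12.87 and 13.09 with SDs of 0.133 and 0.0719.

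The 4 remaining genes were dimmer. The mean level was 12.02 for rpl22l1, 10.15 for rps27l, which p53 induces in human cells, 8.87 for rpl7l1 and 8.05 for rps19bp1. Each lay above at least 85.7% of all tested probe sets. Over the livers rpl7l1 ran from 8.02 to 10.17, the widest range of the 74. A gene had more than 1 probe set in 4 cases. The probe sets not used read 4.64 for rpl21 (12.85 on the one used), 12.62 for rpl3 (13.68), 7.72 for rps19bp1 (8.05), and 12.45 and 12.81 for rps27.1 (13.08), and none of them passed the test in a diet contrast.

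The first comparison asked whether a month of overfeeding altered these transcripts in ahcy+/+ livers. None of the 74 passed an adjusted p of 0.05 in limma 3.58.1 (Benjamini-Hochberg over 15134 probe sets), against 4.5% of all tested probe sets, and none had an unadjusted p under 0.05, against 19.7%. At like brightness, 0 of the 52 other probe sets between log2 levels of 13 and 14 passed, and 10 of the 157 between 12 and 14. The difference between the diets was under 0.1 log2 units for 68 of the 74 genes and under 0.2 for 72. The 95% interval of the difference lay within a 1.5-fold change in either direction for 72 of the 74, rpl7l1 and rpl22l1 being the exceptions. The median difference was -0.027 (all probe sets -0.033), with 19 genes positive, and after quantile normalization 11 were positive. With each array centred on its median the median difference was 0.026, with 51 positive, so the direction did not hold over all scalings. No gene had every overfed array below every regular-diet array, against 3.92% of all probe sets.

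By class, the median difference in ahcy+/+ livers was -0.018 for the large subunit (from -0.116 for rpl31 to 0.096 for rpl22, which turned to -0.034 without regular-diet array 9), -0.040 for the small subunit (from -0.094 for rps3 to 0.043 for rps26, or -6.67e-05 without that array) and -0.050 for the stalk. The gene with the smallest p was rpl22l1, at 11.93, 12.27, 11.76 and 12.90 on regular-diet arrays 2, 5, 6 and 9 and at 12.14, 11.66, 11.87, 11.70 and 11.87 on overfed arrays 2, 3, 4, 6 and 7. Its difference of -0.36 ± 0.19 (log2 ± SE, n = 4 and 5) had an adjusted p of 0.323 in limma. The groups overlapped and array 9 was the highest of all; without that array the difference was -0.14. The next smallest p belonged to rps19bp1 (-0.18 ± 0.10), rpl31 (-0.12 ± 0.08) and rpl12 (-0.11 ± 0.09). The unused probe set of rps19bp1 differed by only -0.04 here (adjusted p = 0.945 in limma). Without array 9 the differences of rps19bp1 and rpl12 were -0.12 and -0.05. The protein of rpl31 sits near the exit of the tunnel through which the new chain leaves, and that of rpl12 at the base of the stalk.

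The second comparison asked the same of ahcy+/- livers. Again none of 74 passed in limma, against 0.0991% of all probe sets, and none had an unadjusted p under 0.05, against 14.2%. The interval lay within 1.5-fold for 71 genes, and the difference was under 0.1 for 60 and under 0.2 for 70. The median difference was -0.053 (all probe sets -0.094) with 9 of 74 genes positive, and after quantile normalization 18 were positive. After centring the median of all probe sets was 0.013 and that of the 74 genes 0.054, with 62 positive. For 22 of the 74 genes both overfed arrays lay below all 3 regular-diet arrays. This was the case for 19.9% of all tested probe sets, and for none of the 74 did both lie above, as for 12.2% of all probe sets.

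The lowest p in ahcy+/- livers came from rpl31, rplp2, rpl13 and rps27.2, all lower after overfeeding in this group without passing the test. The level of rpl31 was 13.15, 13.22 and 13.18 on regular-diet arrays 3, 7 and 8 and 12.93 and 12.99 on overfed arrays 1 and 4, a difference of -0.22 ± 0.11 (adjusted p = 0.363 in limma). The stalk gene rplp2 stood at 12.98, 13.06 and 13.01 against 12.82 and 12.67, a difference of -0.27 ± 0.13 (adjusted p = 0.364). This was the largest difference of the 74 genes in ahcy+/- livers on the probe sets used. The unused probe set of rps19bp1 differed by -0.45 (adjusted p = 0.455 in limma). The large subunit gene rpl13 stood at 13.19, 13.23 and 13.23 against 12.97 and 13.04, a difference of -0.21 ± 0.10. The same 4 genes were also negative in ahcy+/+ livers, at -0.12, -0.07, -0.07 and -0.07, where the groups overlapped; without array 9 the values of rplp2 and rps27.2 there were -0.14 and -0.12.

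**Figure D2:**
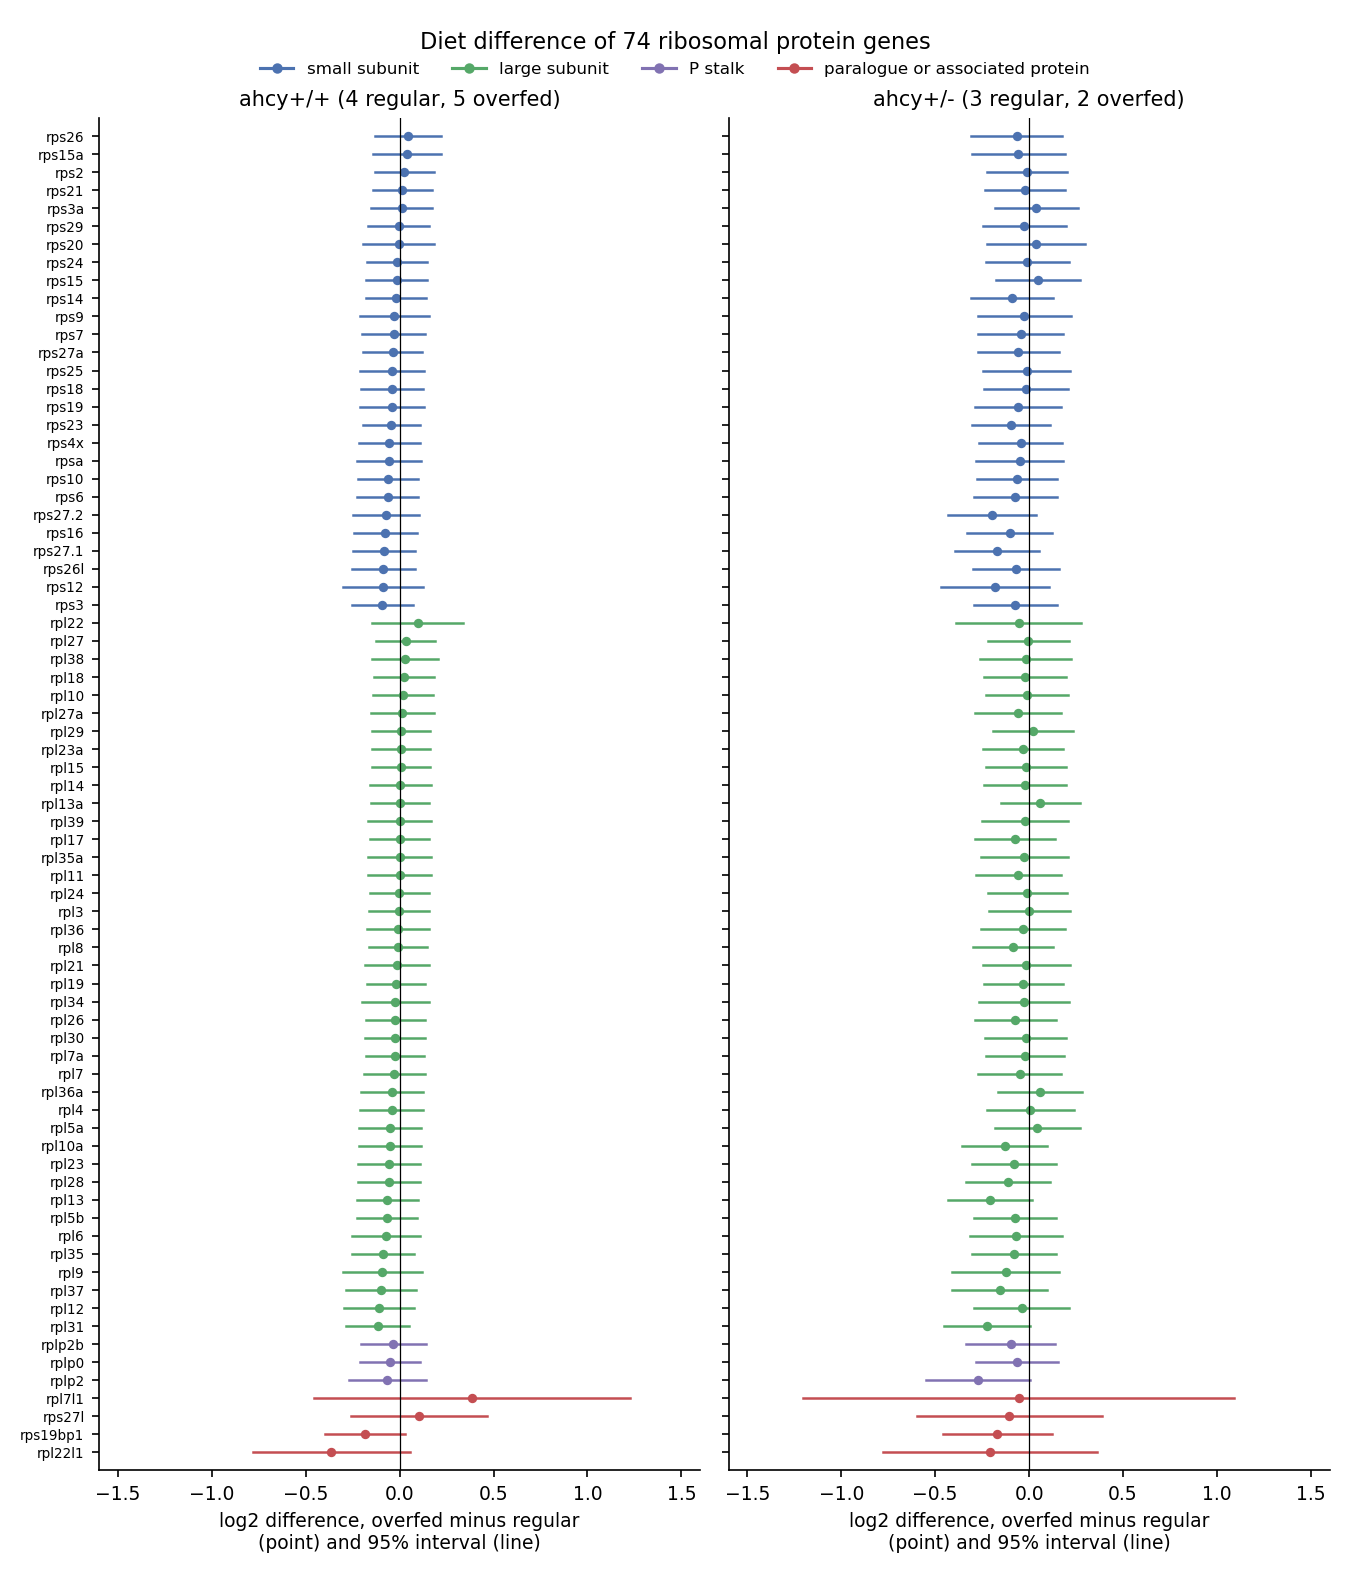
Difference between overfed and regular-diet livers for each of the 74 genes (y axis, grouped by role) in log2 units (x axis), as point and 95% interval from limma, in ahcy+/+ (left) and ahcy+/- livers (right). All 74 intervals cross 0 in both panels, and those of rpl7l1 and rpl22l1 are the widest.

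Over both genotypes, 7 regular-diet and 7 overfed livers were compared through the mean of the diet differences. None of the 74 passed an adjusted p of 0.05 in limma, against 10.3% of all probe sets, and 1 had an unadjusted p under 0.05, against 27.7%. That gene was rpl31, at -0.17 ± 0.07 (1.13-fold lower; adjusted p = 0.116). Its overfed arrays ran from 12.93 to 13.11 and its regular-diet arrays from 13.05 to 13.28; regular-diet ahcy+/+ array 6 fell within the overfed range. The next were rpl13 at -0.14 ± 0.06 (adjusted p = 0.183), rps19bp1 at -0.18 ± 0.08 (adjusted p = 0.191) and rplp2 at -0.17 ± 0.08 (adjusted p = 0.191). At like brightness, 2 of the 52 other probe sets between log2 levels of 13 and 14 passed, and 22 of the 157 between 12 and 14. None of the 74 genes had all overfed arrays below all regular-diet arrays, against 1.46% of probe sets. The median was -0.028 (all probe sets -0.066) with 13 genes positive, and after centring it was 0.052 with 59 positive. After quantile normalization 12 were positive.

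The counts depended on how the test pools variances. The residual SD of the 74 genes had a median of 0.0567, while limma draws each variance toward that of all probe sets, and 71 of the 74 lay below that common value, so that the SD used in the test had a median of 0.114. In a fit added after seeing the data, with each probe set's own variance, 4 genes passed for the mean over genotypes, all lower after overfeeding: rpl31 (adjusted p = 0.0196), rpl13 (0.0243), the decoding site gene rps23 (-0.07, adjusted p = 0.0305) and rps27.1 (-0.13, adjusted p = 0.0373). In that fit 8.58% of all probe sets passed, a larger share than 4 of 74, and 19 of the 74 had an unadjusted p under 0.05, near the 27% of all probe sets. After centring, rps23 was at 0.01 and the other 3 from -0.05 to -0.09. After quantile normalization rps27.2 (-0.33, adjusted p = 0.0158) and rplp2 (-0.26, adjusted p = 0.0307) passed, and with the vitellogenin level as a covariate rpl22l1 (-0.44, adjusted p = 0.0340), against 9.21% and 16.2% of all probe sets. With the pancreas and intestine marker means as covariates none passed in limma, and rpl22l1 stood at 0.08. Within a genotype, the fit with each probe set's own variance also gave other counts than pooling. In ahcy+/+ livers 6 of the 74 had an unadjusted p under 0.05 in that fit, against 18.9% of all probe sets. In ahcy+/- livers 9 did, against 13.8%, and none of the 74 passed in either genotype.

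**Figure D3:**
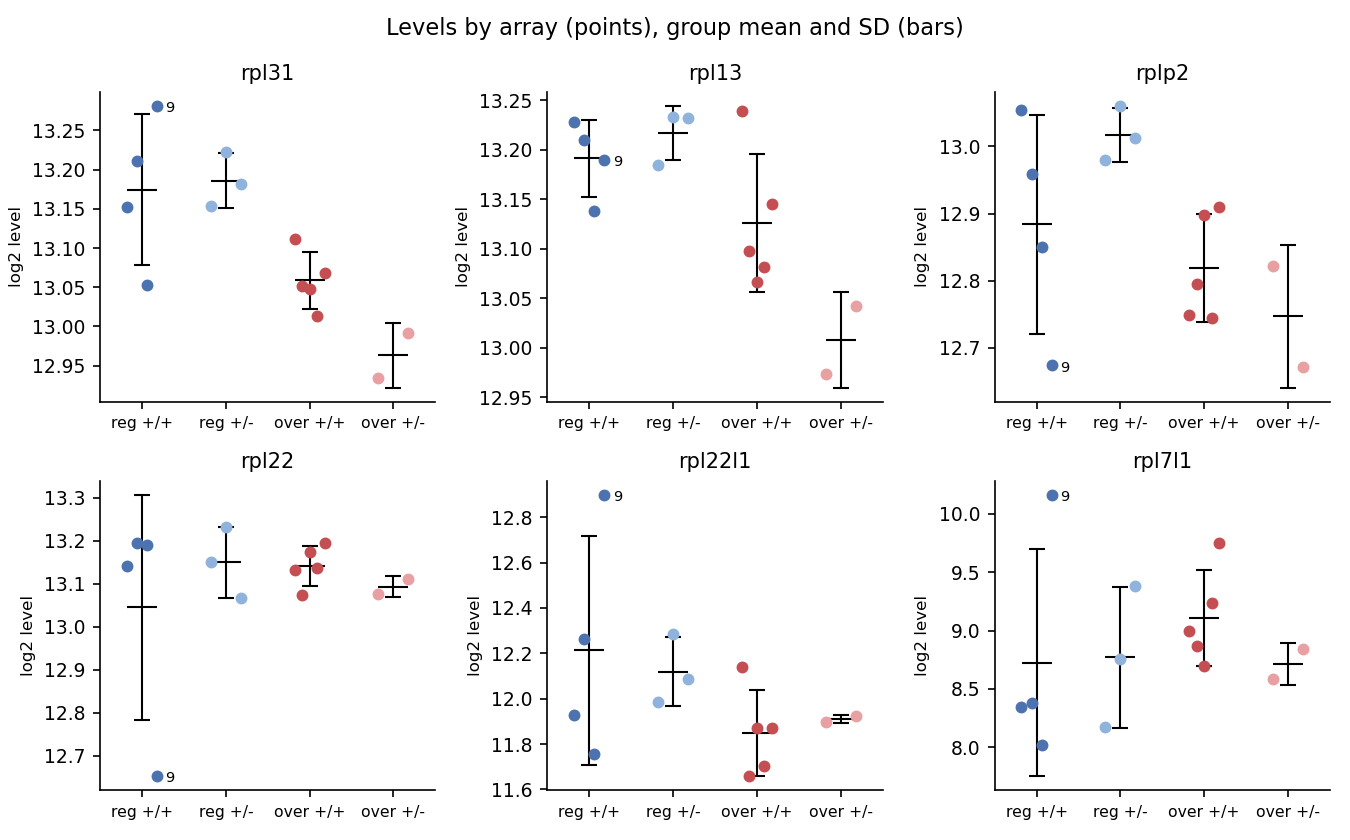
Log2 levels of rpl31, rpl13, rplp2, rpl22, rpl22l1 and rpl7l1 on each array (points) in the 4 groups, with the group mean and SD (bars), each panel on its own scale; 9 marks regular-diet ahcy+/+ array 9. In rpl31 and rpl13 both overfed ahcy+/- arrays are the lowest of all, and array 9 lies far from its group in rpl22, rpl22l1 and rpl7l1.

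Genotype was compared to see whether loss of 1 copy of ahcy altered the same transcripts. On the regular diet none of 74 passed an adjusted p of 0.05 (all probe sets 0.0%) and none had an unadjusted p under 0.05 (all 3.03%). After overfeeding none passed (all 0.0%) and none had an unadjusted p under 0.05 (all 1.72%). For the mean over diets none passed (all 0.0%) and none had an unadjusted p under 0.05 (all 2.45%), and for the interaction of diet and genotype none passed (all 0.0%) and none had an unadjusted p under 0.05 (all 1.91%). These counts are from limma with pooled variances. In the fit with each probe set's own variance, added after seeing the data, none passed in these 4 contrasts either. The unadjusted p was then under 0.05 for 0, 3, 4 and 1 of the 74 genes. Of all probe sets this held for 3.36%, 1.75%, 2.63% and 2.04%. The limma intervals with pooled variances lay within 1.5-fold for 73, 73, 73 and 71 genes in these 4 contrasts, with rpl7l1 outside in each.

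On the regular diet the genotype difference was under 0.1 log2 units for 72 of 74 genes, from -0.10 for rpl12 to 0.13 for rplp2, with a median of -0.014 (all probe sets 0.05). Without ahcy+/+ array 9 these extremes were -0.03 and 0.06, and rpl7l1 was the highest at 0.53. The small subunit genes rps3a and rpsa had every ahcy+/- array below every ahcy+/+ array, against 0.905% of all probe sets. The level of rpsa, which binds where the messenger RNA leaves, was 13.48, 13.48, 13.47 and 13.65 in ahcy+/+ and 13.44, 13.47 and 13.41 in ahcy+/- livers, a difference of -0.09 ± 0.09, or -0.04 without array 9. With arrays centred 6 of the 74 were positive in place of 31, and the median was -0.069. After overfeeding the median was -0.035 (all -0.007), with 13 genes positive, or 12 after centring. For 11 of 74 genes both ahcy+/- arrays lay below all 5 ahcy+/+ arrays, against 3.48% of all probe sets. They were rpl13, rpl18, rpl26, rpl27, rpl31, rpl5b, rps23, rps29, rps4x, rps6 and rpsa, and rps6 encodes the substrate after which the S6 kinases are named. The smallest p belonged to rpl13, at -0.12 ± 0.09 (adjusted p = 1.0 in limma), with levels of 13.24, 13.10, 13.07, 13.08 and 13.15 in ahcy+/+ and 12.97 and 13.04 in ahcy+/- livers. The 2 overfed ahcy+/- arrays also enter the diet comparison in that genotype, so the 2 sets of values share them. For the mean over diets the median genotype difference was -0.023 (all probe sets 0.023), with 18 of the 74 genes positive. After centring 4 were positive, and after quantile normalization 0. In the latter fit 3 genes had an unadjusted p under 0.05 in limma, against 2.66% of all probe sets, and none passed.

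The difference between the diet effects of the genotypes was -0.21 ± 0.16 for rplp2 (-0.14 without array 9) and -0.14 ± 0.13 for rpl13, the members with the smallest p (both adjusted p = 0.9996 in limma), and the median over the genes was -0.023 (all probe sets -0.061), or 0.031 after centring, where 54 of the 74 were positive in place of 25.

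Taken as a set, the genes differed by small amounts from liver to liver. Their mean log2 level lay between 12.983 on overfed ahcy+/+ array 3 and 13.093 on regular-diet ahcy+/- array 7, and its SD within groups was 0.0326. On that highest array 65 of 74 genes lay above their own median over the arrays, and on overfed ahcy+/- array 4, with a mean of 12.984, 9 did. The number was 57, 62, 29 and 50 on the regular-diet ahcy+/+ arrays 2, 5, 6 and 9, 38, 65 and 28 on regular-diet ahcy+/- arrays 3, 7 and 8, 56, 16, 33, 19 and 36 on overfed ahcy+/+ arrays 2, 3, 4, 6 and 7, and 18 and 9 on overfed ahcy+/- arrays 1 and 4. The 2 overfed ahcy+/- livers were thus both low on the deposited scale, on which their array medians (6.020 and 5.963) were also below those of the regular-diet ahcy+/- arrays (6.069 to 6.125); after centring 62 of the 74 were higher in the overfed of these livers. The other 3 groups each held high and low livers. Such counts were not made for all probe sets, so whether these genes moved together more than others did was not tested.

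**Figure D4:**
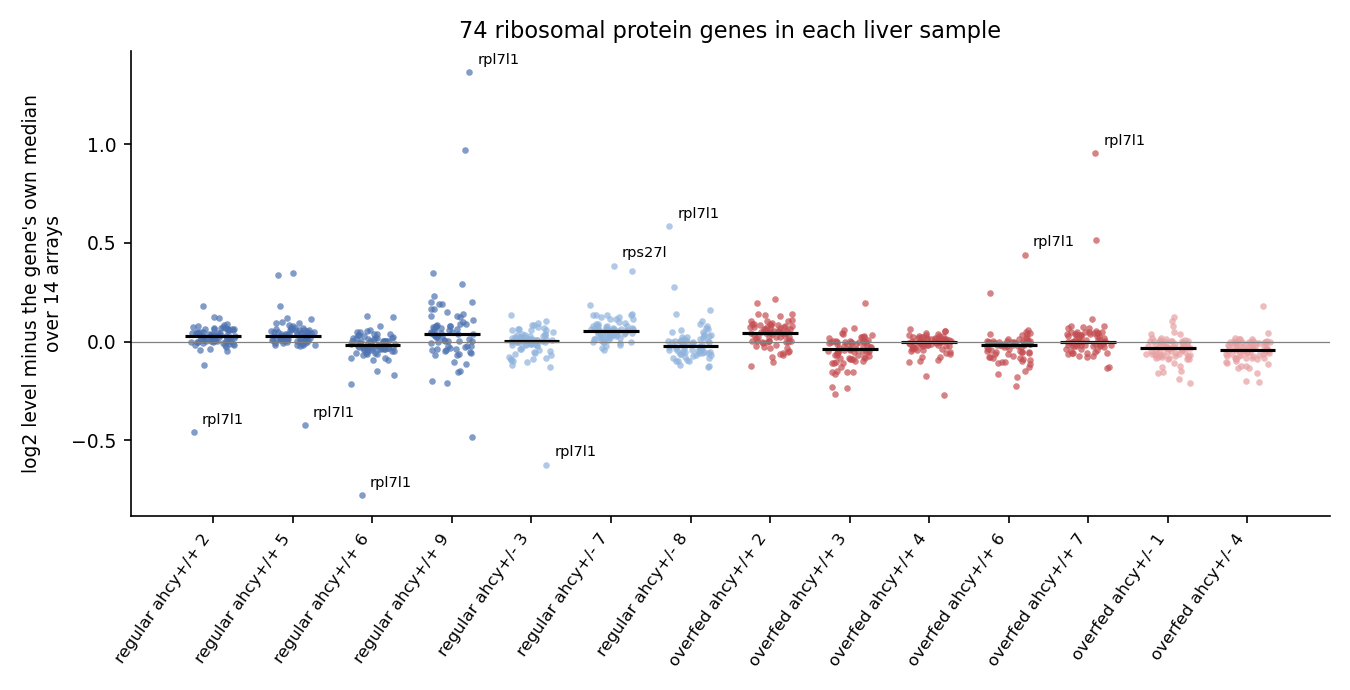
Log2 level of each of the 74 genes minus its own median over the 14 arrays (y axis) on each array (x axis), coloured by group, with the median over genes as a bar and the farthest gene named where it is over 0.35 away. The bars all lie close to 0, and the widest scatter is on regular-diet ahcy+/+ array 9.

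Regular-diet ahcy+/+ array 9 had the widest scatter. It held the highest value of 23 of the 74 genes and the lowest of 6, and 8 genes lay more than 0.2 from their own median there, against 1 to 3 on each other array. The paralogues rpl22 and rpl22l1 were apart in opposite directions. In mice the protein of Rpl22 holds down the expression of Rpl22l1. The level of rpl22 was 12.65 on this array and between 13.07 and 13.23 on all 13 others, and that of rpl22l1 was 12.90 on this array and between 11.66 and 12.29 on the others. Of the 13 others, the highest rpl22 (13.23) and the highest rpl22l1 (12.29) were both on regular-diet ahcy+/- array 7. A link between the 2 genes was not tested. Without array 9 the SD of rpl22 fell from 0.141 to 0.0524 and that of rpl22l1 from 0.317 to 0.198. The assembly factor gene rpl7l1 was at its highest on array 9 too, at 10.17.

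The level of rpl7l1 on the other regular-diet arrays was 8.34, 8.38 and 8.02 in ahcy+/+ and 8.17, 8.76 and 9.38 in ahcy+/- livers. After overfeeding it was 8.99, 8.87, 8.70, 9.24 and 9.76 in ahcy+/+ and 8.59 and 8.84 in ahcy+/- livers. With array 9 the diet difference in ahcy+/+ livers was 0.38 ± 0.39, and the groups overlapped. Without it the difference was 0.86 ± 0.27 (unadjusted p = 0.00704, adjusted p = 0.0662 in limma with n = 3 and 5) and did not pass. In that fit 22.6% of all probe sets had an unadjusted p under 0.05 and 8.88% passed. The mean level of the ribosome biogenesis factors was also highest on overfed ahcy+/+ array 7 (7.82), regular-diet ahcy+/+ array 9 (7.73) and overfed ahcy+/+ array 6 (7.47), which are 3 of the 4 arrays with the highest rpl7l1. On array 9 the pancreas mean was 11.94 and the intestine mean 9.04; their part in these values was not tested, apart from the covariate fit, in which rpl7l1 differed by 0.85 ± 0.43 between the diets in ahcy+/+ livers and rpl22l1 by -0.04 ± 0.18.

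Genes that make or regulate ribosomes were set beside the subunit proteins. These lists varied more between diets: the median size of the diet difference over both genotypes was 0.030 for the 74 genes, 0.156 for 59 mitochondrial ribosomal protein genes, 0.174 for 104 ribosome biogenesis factors, 0.192 for 14 RNA polymerase I genes, 0.175 for 36 other transcripts with a TOP tract in mammals and 0.195 for 28 genes of TORC1 and translation control, against 0.176 for all probe sets. Of all probe sets, 3.07% were called higher and 1.43% lower in ahcy+/+ livers, and 5.83% higher and 4.5% lower over both genotypes. In ahcy+/- livers alone no gene of these lists passed in limma, while 5 mitochondrial ribosomal protein genes, 8 biogenesis factors, 1 RNA polymerase I gene, 11 TOP transcripts and 4 TORC1 genes had an unadjusted p under 0.05, as did 14.2% of all probe sets. No gene of these lists passed in the genotype contrasts, where each list held from 0 to 3 genes with an unadjusted p under 0.05. Most biogenesis factors were lower in ahcy+/- livers: over both diets 14 of 104 were positive, with a median of -0.147 (all probe sets 0.023). Of the 59 mitochondrial genes 8 were positive after overfeeding (median -0.155, all probe sets -0.007) and 32 on the regular diet. Of the 28 TORC1 genes 16 were positive over both diets. These list medians were not refitted without single arrays.

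Mitochondrial ribosomal proteins make up the separate ribosomes inside mitochondria. In ahcy+/+ livers 1 of 59 rose and 1 fell, and over both genotypes 1 rose and 3 fell. The large subunit gene mrpl3 fell by 0.76 ± 0.13 in ahcy+/+ livers (adjusted p = 0.00877), from 7.74 to 6.98, and its call over both genotypes held each time 1 of the 14 arrays was left out. The small subunit gene mrps30 rose by 0.54 ± 0.13, a call lost in 7 of the 14 such fits (adjusted p up to 0.0965, without overfed ahcy+/+ array 6). Over both genotypes mrps26 (-0.65) and mrpl42 (-0.56) fell, with adjusted p of up to 0.0942 and 0.225 without overfed ahcy+/- array 4. The list's calls were 1 higher and 9 lower without regular-diet ahcy+/+ array 9, when 15.3% of all probe sets were called. With the pancreas and intestine covariates mrpl3 alone of these 4 passed.

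Ribosome biogenesis factors process the ribosomal RNA and load the proteins onto it. In ahcy+/+ livers 1 of 104 rose and none fell in limma, and 10 had an unadjusted p under 0.05; the list's median was 0.078. That gene was npm1a, for the nucleolar chaperone nucleophosmin, which rose from 10.77 to 11.91 (1.14 ± 0.28, adjusted p = 0.0376). This call in ahcy+/+ livers was lost in 7 of the 14 fits without 1 array (adjusted p up to 0.107, without regular-diet ahcy+/+ array 6). It was also lost after quantile normalization (adjusted p = 0.144 in limma). Over both genotypes npm1a, the small subunit processome gene pwp2h (0.88 ± 0.21) and mybbp1a (0.75 ± 0.21) rose, and pno1 (-0.54 ± 0.11, adjusted p = 0.0103) and nol8 (-0.47 ± 0.13) fell. The level of nol8 was near the filter value of 4, with group means from 4.72 in regular-diet ahcy+/+ to 3.85 in overfed ahcy+/- livers. The call of pno1, which helps to mature the small subunit, held in all 14 fits without 1 array but not with the pancreas and intestine covariates (adjusted p = 0.0810). The other calls over both genotypes ended in 1 (npm1a), 2 (pwp2h), 10 (mybbp1a) and 10 (nol8) of these 14 fits. Without regular-diet ahcy+/+ array 9 the counts were 7 higher in ahcy+/+ livers, and 9 higher and 3 lower over both genotypes, when 8.88% and 15.3% of all probe sets were called. Of 14 RNA polymerase I genes none passed in limma in ahcy+/+ livers, where 3 had an unadjusted p under 0.05. Over both genotypes polr2f, for a subunit that all nuclear RNA polymerases share, was called at -0.30 and ubtfl at -0.56; after centring neither passed, and they lost the call in 5 and 12 of the 14 fits without 1 array.

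Other transcripts with a TOP tract in mammals encode translation factors, among other proteins. In ahcy+/+ livers 1 of 36 rose, npm1a, and 1 fell. The latter was eif4a2, for a helicase that opens the start of messenger RNAs, which fell by 1.26 ± 0.19 (adjusted p = 0.00575), from 8.60 to 7.35, with the call kept in all 14 fits without 1 array. Over both genotypes 2 rose, npm1a and eef2a.1 (0.99), and 8 fell. They were eif4a2 (-1.06), eef1db (-0.47), nap1l1 (-0.58) and the initiation factor 3 genes eif3ba (-0.39), eif3d (-0.41), eif3g (-0.41), eif3ha (-0.54) and eif3m (-0.44). Of the 8, 3 passed with arrays centred (eif4a2, eef1db and eif3ha), and eif4a2 alone with the pancreas and intestine means as covariates or when either overfed ahcy+/- array was left out. The median of the list was -0.094 (all probe sets -0.066), with 9 of 36 positive.

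Of 28 genes of TORC1 and translation control, ddit4, an inhibitor of TORC1 made under stress, rose by 4.07 ± 0.51 and eif4e1c, a form of the cap-binding factor, by 0.87 ± 0.23 in ahcy+/+ livers. The proto-oncogene mycb, of the Myc family that drives ribosome production, fell by 3.33 ± 0.58. Over both genotypes ddit4 and the LARP1 relative larp1b (0.50 ± 0.13) rose and mycb fell. The calls of ddit4 and mycb held in all 14 fits without 1 array. That of eif4e1c ended in 11 (adjusted p up to 0.125, without overfed ahcy+/+ array 6) and that of larp1b in 6 (up to 0.137, without overfed ahcy+/- array 4); neither passed with the pancreas and intestine covariates. Of 16 genes of the p53 response, which free ribosomal proteins can set off in mammals, baxa (1.30 ± 0.23), which promotes cell death, and ccng2 (1.33 ± 0.30), a cyclin that slows the cell cycle, rose in ahcy+/+ livers. Over both genotypes these 2 rose and tigarb (-0.37) fell, the calls of baxa and ccng2 holding in all 14 fits without 1 array; in ahcy+/+ livers that of ccng2 ended in 5. The call of tigarb ended without overfed ahcy+/- array 4 (adjusted p = 0.0969) and with the pancreas and intestine covariates (0.227). Over both genotypes the median of the list was 0.121 (all probe sets -0.066), with 10 of 16 positive. Its members mdm2 (0.014), phlda3 (-0.006) and bbc3 (-0.04) were not called there.

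**Figure D5:**
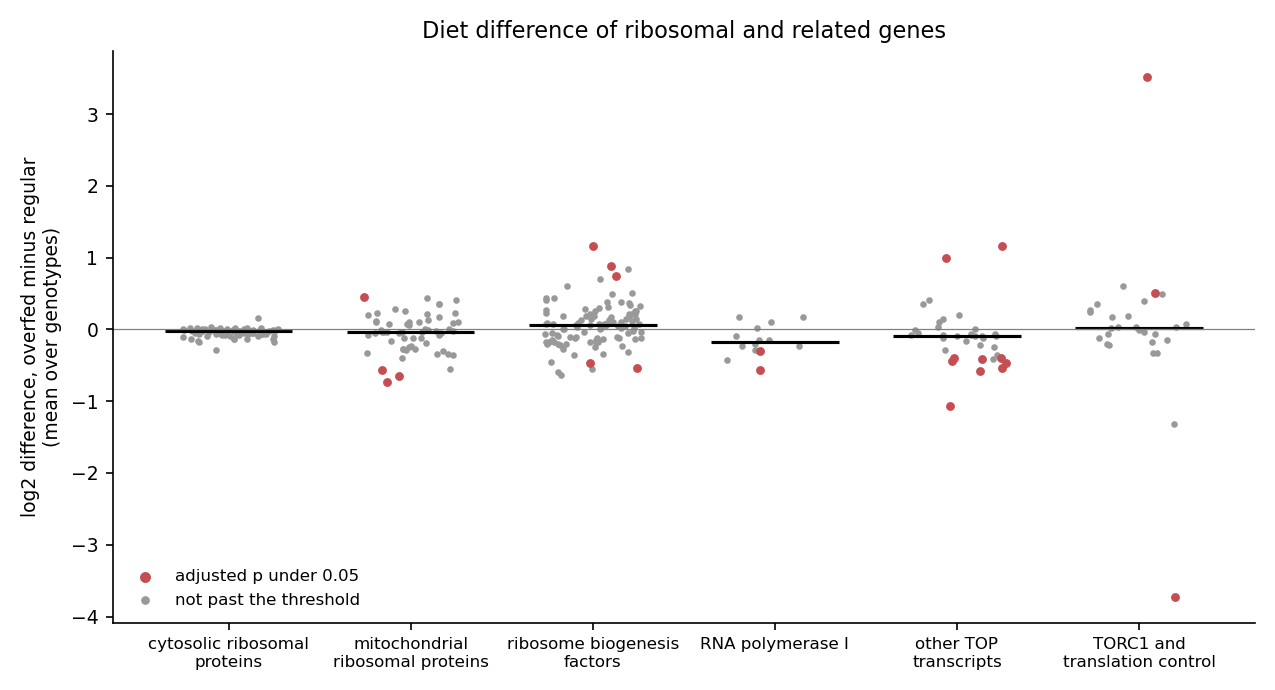
Difference between overfed and regular-diet livers over both genotypes in log2 units (y axis) for the genes of 6 lists (x axis), with the genes past an adjusted p of 0.05 in red and the list median as a bar. The 74 cytosolic ribosomal protein genes lie in the narrowest band, from -0.29 for rpl22l1 to 0.16 for rpl7l1, with none in red. Without regular-diet ahcy+/+ array 9 these 2 genes were at -0.17 and 0.40, and the lowest was rplp2 at -0.20.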

How the data were processed

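The authors deposited 1 table of log2 expression values, 1 column per array, with 15617 probe sets; the submitters' processing notes list GCRMA and Partek without versions or their roles, and further steps are not given in the sources used here. The 115 control probe sets and 368 not above 4 on at least 2 arrays were removed. Symbols came from the platform's annotation, and all 74 genes matched a RefSeq table by identifier. A mean for each group was fitted over the 14 arrays (limma 3.58.1, lmFit and eBayes, R 4.3.3; 10 residual and 3.06 prior degrees of freedom), with Benjamini-Hochberg adjustment over all tested probe sets in each of 7 contrasts at 0.05. The fit was checked on simulated data. Precision is limited by how few arrays there are. The members, lists and settings were chosen with earlier results of these data known. Lists were matched by symbol, or by a RefSeq synonym that belongs to 1 gene.

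Members named were the 4 of smallest p per contrast, the 5 highest and lowest in level and in SD, the stalk, and paralogues; of lists, called genes. Members named for not overlapping, or for the class extremes of level, SD and difference, were chosen after their values were seen. The alternatives were 2 other low-value filters, a variance trend with robust moderation, array weights, the compared groups alone, centring, quantile normalization, 1 probe set per gene, a vitellogenin covariate, a block of same-numbered replicates, the lowest or mean probe set of a gene, and leaving out each array. A fit with pancreas and intestine covariates and one with no variance moderation were chosen after seeing the data. The overfed ahcy+/+ array numbered 4 in its title has number 5 in its description, and the title was used. Same-numbered arrays deviated together with correlations of -0.23 to 0.162, so the numbers were not taken to pair them. Figures were drawn with matplotlib 3.10.9.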

Additional observations from a re-analysis of the deposited data

Results flagged for a closer look

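Of 148 tests for a single liver far from the others of its group (74 genes in the 2 groups of at least 4), 14 passed Dixon's critical value, where chance alone gives about 1 in 20; the genes share their arrays and are not independent. Among the named genes, 5 of the values belonged to regular-diet ahcy+/+ array 9. There rpl22 was lowest (12.65, against 13.14 to 13.19 in the rest of its group; gap 0.904 of the range) and rps26 lowest (12.72, against 12.88 to 12.91; 0.853). On the same array rpl7l1 was highest (10.17, against 8.02 to 8.38; 0.834), as were rplp0 (14.03, against 13.95 to 13.96; 0.916) and rpsa (13.65, against 13.47 to 13.48; 0.929). Array 6 of that group held a low rps23 (13.26, against 13.32 in the rest; 0.918), and array 5 a high rps27l (10.42, against 9.95 to 10.02; 0.850). Overfed ahcy+/+ array 2 held a high rpl7a (13.46, against 13.39 to 13.41; 0.739) and a high rps4x (13.79, against 13.70 to 13.72; 0.824). The gaps of rplp0, rps23, rpl7a and rps4x were under 0.1 log2 units.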

How the results depend on the processing

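No gene passed in diet within either genotype or in any genotype contrast under any of the alternatives run. Over both genotypes, the count of 0 was 2 after quantile normalization, 1 with the vitellogenin covariate and 4 with no variance moderation (9.21%, 16.2% and 8.58% of all probe sets), and 0 in all 14 fits without 1 array. The median difference of the 74 genes after centring was 0.026 (diet, ahcy+/+), 0.054 (diet, ahcy+/-), 0.052 (diet, mean), -0.069 (genotype, regular diet) and 0.031 (interaction); after quantile normalization it was -0.078 for genotype on the regular diet and -0.069 for the mean genotype difference. The cause was not tested. Without 1 array the medians ran from -0.041 to -0.016 (diet, ahcy+/+), -0.066 to -0.029 (diet, ahcy+/-), -0.039 to -0.016 (diet, mean), -0.033 to 0.007 (genotype, regular diet), -0.042 to -0.020 (genotype, overfed), -0.034 to -0.010 (genotype, mean) and -0.039 to 0.001 (interaction). With the replicate number as a block, which the data do not bear out as a pairing, no gene passed; the medians were -0.099 (diet, ahcy+/-), 0.045 (genotype, regular diet) and -0.089 (interaction), and rpl22l1 (0.078, diet in ahcy+/+), rpl4 (0.038) and rplp2 (-0.038, both genotype on the regular diet) changed sign. The other values were 373 counts and medians and 766 of single genes. These counts were unchanged, and these medians moved by less than 0.0326, the SD of the genes' mean level within groups. That margin is wider than several of the medians themselves, such as -0.027 for diet in ahcy+/+ livers, so a median could change sign within it. With the pancreas and intestine covariates 36 of the 74 genes were positive in that contrast, in place of 19. The single genes kept their sign and their side of the threshold. The fit of the compared groups alone gives no mean or interaction. Over all probe sets, 681 were called in ahcy+/+, 15 in ahcy+/- and 1564 over both; these counts were 1949, 80 and 2810 with array weights, 1090, 27 and 2453 with the vitellogenin covariate, 795, 64 and 1649 after centring, 605, 31 and 1394 after quantile normalization, 625, 52 and 975 with the pancreas and intestine covariates, 432, 4 and 1299 with no moderation and 6, 0 and 5 with the block, and without 1 array they ran from 253 to 1342, 0 to 91 and 538 to 2319.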
